A study of Bos taurus with 64 samples.

Results

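Muscle microRNAs (miRNAs) of feed-efficient and feed-inefficient dairy-breed steers were compared on a high-concentrate diet. The comparison took 16 of the 64 skeletal muscle libraries of the study, chosen by their labels: Holstein-Friesian steers with Low-RFI (8 libraries) or High-RFI (8 libraries) on the high concentrate diet. Residual feed intake (RFI) is the feed an animal eats above or below that predicted for its size and growth, so a low-RFI steer is the more efficient. All differences are low minus high RFI. Each of the other 6 groups of 8 libraries was another combination of breed (Charolais or Holstein-Friesian), RFI class and diet.

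All 16 steers had passed through a phase of 70 days on zero-grazed grass before the concentrate phase, with 14 days of acclimatisation between them, and muscle was taken at the end of a phase. Both classes therefore shared that earlier diet. The RFI classes were drawn from 77 Holstein-Friesian steers with recorded intake. The labels do not say which muscle was sampled, how old the steers were or on which phase a steer's class was based. The 16 libraries came from different steers, and the steer of high-RFI replicate 1 also gave a grass library. Replicate numbers are names only.

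miRNAs are short RNAs that guide Argonaute proteins to messenger RNAs and lower the translation and stability of their targets. Several are made from shared primary transcripts, so the members of a genomic cluster can be transcribed together, while each is processed and degraded separately. A muscle biopsy also holds blood, immune, vascular and connective tissue cells, which bring miRNAs of their own. Muscle is a large consumer of the energy that an animal spends on maintenance, which is why it is studied in feed efficiency.

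Total counts ran from 6970858 to 11456196 in low-RFI and from 6149197 to 11224680 in high-RFI libraries, with a mean of 482 and 506 miRNAs detected. Levels are given as CPM, counts put on a common library scale with TMM factors, which correct for differences in composition between libraries. No difference between the classes in total count, number detected, TMM factor or share of miR-10b passed its test (exact permutation tests, two-sided, p from 0.131 to 0.477, smallest adjusted p = 0.272 over 4 tests). With 8 libraries in each class such tests can miss a difference. The mean TMM factor was 0.865 in low RFI and 1.08 in high RFI. In these 16 libraries 83.3% of the counts came from 5 miRNAs and 95% from 20. The striated-muscle miRNAs miR-486 and miR-133a were among the 3 most abundant names. The liver marker miR-122 reached at most 1 count in any of the 16 libraries and the neuronal marker miR-124a at most 4.

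No miRNA differed between low and high RFI after adjustment. Of 318 miRNAs tested by edgeR, 0 (0%) had an adjusted p under 0.05. At an unadjusted p under 0.05 there were 34, where 15.9 would be expected by chance: 23 lower in low RFI (7.23%) and 11 higher (3.46%). The count of lower miRNAs was 15 without low-RFI replicate 4, and that of higher ones was 6 without low-RFI replicate 3 and 7 without low-RFI replicate 7 or high-RFI replicate 6. All 8 low-RFI libraries lay below the high-RFI median for 21 miRNAs (6.6%) and above it for 7 (2.2%). The CPM ranges of the classes overlapped for every miRNA (0% without overlap). Across the 318, 176 differences lay below zero and 142 above, with a median of -0.05 on the log2 scale. The median 95% confidence interval, not adjusted for the number of tests, reached 0.453 log2 units to either side of its estimate. For a typical miRNA a smaller difference could not be told from zero, and adjustment over the 318 raised that limit.

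**Figure D1:**
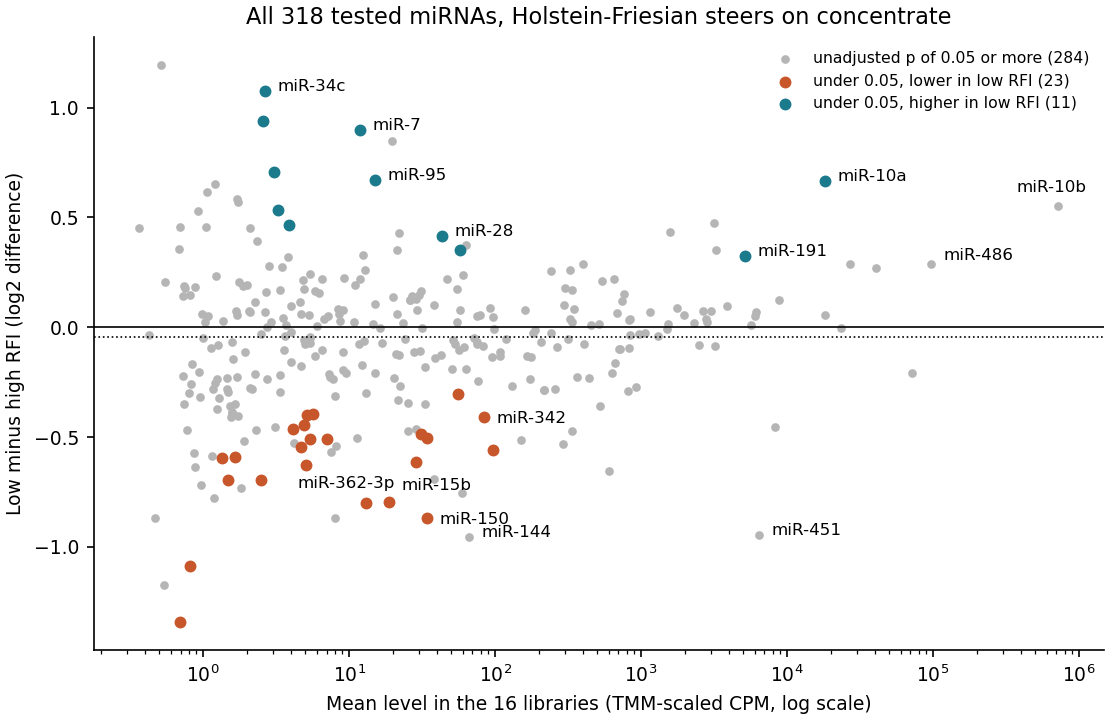
Each point is 1 of the 318 tested miRNAs, with its mean TMM-scaled CPM in the 16 libraries on a log axis against its log2 difference, low minus high RFI, and the dotted line marks the median of -0.05. The 34 coloured points have an unadjusted p under 0.05, 23 of them below zero, and none has an adjusted p under 0.05; miR-451 and miR-144 are far below zero without reaching it.

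The smallest p belonged to miR-150, the miRNA of mature lymphocytes that restrains the transcription factor MYB. Its lowest, median and highest levels were 18.6, 22.5 and 41.2 CPM in low RFI and 22.9, 45.9 and 61.5 CPM in high RFI. The groups overlapped through low-RFI replicate 5, at 41.2 CPM where the other 7 reached at most 24.4, and high-RFI replicate 1, at 22.9 CPM where the other 7 stood at 33.6 or more. All 8 low-RFI libraries lay below the high-RFI median, and 5 high-RFI libraries lay above every low-RFI library. The mean was 24.3 ± 7.09 CPM in low RFI and 44.4 ± 13.4 in high RFI (SD, n = 8 each), which made it 1.83-fold higher in high RFI. The log2 difference was -0.87 ± 0.23 (SE, 95% interval -1.33 to -0.41, adjusted p = 0.0943). Without low-RFI replicate 5 it was -1.02 (adjusted p = 0.0205 by edgeR) and without high-RFI replicate 1 it was -0.96 (0.0207), both past the threshold that the full set missed.

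miR-342, also abundant in lymphocytes and overlapping the gene EVL in the RefSeq annotation of ARS-UCD2.0, was the third by p. It ranged from 61.6 to 80.0 CPM in low RFI (median 69.8) and from 64.3 to 157 CPM in high RFI (median 87.8). The low-RFI libraries were tightly grouped, and 5 high-RFI libraries lay above all of them. Its log2 difference was -0.41 ± 0.12 (adjusted p = 0.0943). It also crossed the threshold without high-RFI replicate 1 (-0.47, adjusted p = 0.0207), while without high-RFI replicate 6, which held the 157 CPM, it was -0.26 (adjusted p = 0.518).

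Of the 8 leukocyte miRNAs, all tested, 6 lay below zero and 2 above, and the median was -0.53 against -0.05 over all miRNAs. Over all 318 miRNAs, 176 lay below zero and 23 (7.23%) were lower at an unadjusted p under 0.05. In the list, miR-150 and miR-342 had an unadjusted p under 0.05, and 0 of 8 passed the adjusted test. Without low-RFI replicate 1 the number at an unadjusted p under 0.05 was 5. miR-223, typical of neutrophils and other myeloid cells, had a median of 3.84 CPM in low and 8.79 CPM in high RFI (-0.87 ± 0.48, adjusted p = 0.508). The pan-haematopoietic pair miR-142-3p (-0.69 ± 0.38) and miR-142-5p (-0.65 ± 0.45) stood on the same side. miR-146a (0.24 ± 0.32) and miR-146b (0.37 ± 0.30), feedback inhibitors of inflammatory signalling, stood on the other, and miR-155 of activated lymphocytes and macrophages was at -0.0030 ± 0.24. The summed level of the 8 ran from 520 to 1313 CPM in low RFI (median 685) and from 474 to 2227 in high RFI (median 886), and each of the 8 had a count in every library. In such bulk samples, fewer cells of a type and less RNA per cell cannot be told apart.

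The erythrocyte pair lay on the same side as miR-150, with a wide spread. miR-451, processed by Argonaute 2 without Dicer and the main miRNA of red blood cells, ran from 880 to 11901 CPM in low RFI (median 3147) and from 813 to 19333 in high RFI (median 7281). Both classes spanned most of the same range and overlapped widely. The difference was -0.94 ± 0.73 for miR-451 and -0.96 ± 0.74 for its cluster neighbour miR-144 (adjusted p = 0.686 each, 0 of 2 at an unadjusted p under 0.05). The sum of both ran from 899 to 12033 CPM in low RFI and from 824 to 19490 in high RFI.

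With the log2 CPM of miR-451 added to the fit as a covariate, a setting chosen after seeing the data, the leukocyte median was -0.12 in place of -0.53 and 5 of 8 lay below zero. In that fit miR-150 was at -0.70, miR-342 at -0.39, miR-223 at -0.18 and miR-142-3p at -0.20. The part of blood cells in these differences was not tested. Within the classes no relation of miR-150 with miR-451 passed the test. Pearson's r was -0.07 in low RFI (exact permutation p = 0.884, adjusted p = 0.884 over 8 relations, Spearman's rho -0.07, p = 0.882) and 0.66 in high RFI (p = 0.106, adjusted 0.155, rho 0.64, p = 0.0962), each over 8 libraries. Without the 2 libraries farthest from the median miR-451 these became -0.22 and 0.26. For miR-342 Pearson's r with miR-451 was -0.60 in low RFI (exact permutation p = 0.116, adjusted 0.155, rho -0.67, p = 0.0831). In high RFI it was 0.20 (exact permutation p = 0.663, adjusted 0.757, rho 0.10, p = 0.84), and neither relation passed the test. The other leukocyte miRNAs were not tested against miR-451 in this way. Of these, miR-142-3p, miR-142-5p and miR-223 were each highest in low-RFI replicate 1 and high-RFI replicates 2 and 4. These libraries held the most miR-451 of their classes. miR-146a, miR-146b and miR-155 were not highest in low-RFI replicate 1.

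**Figure D2:**
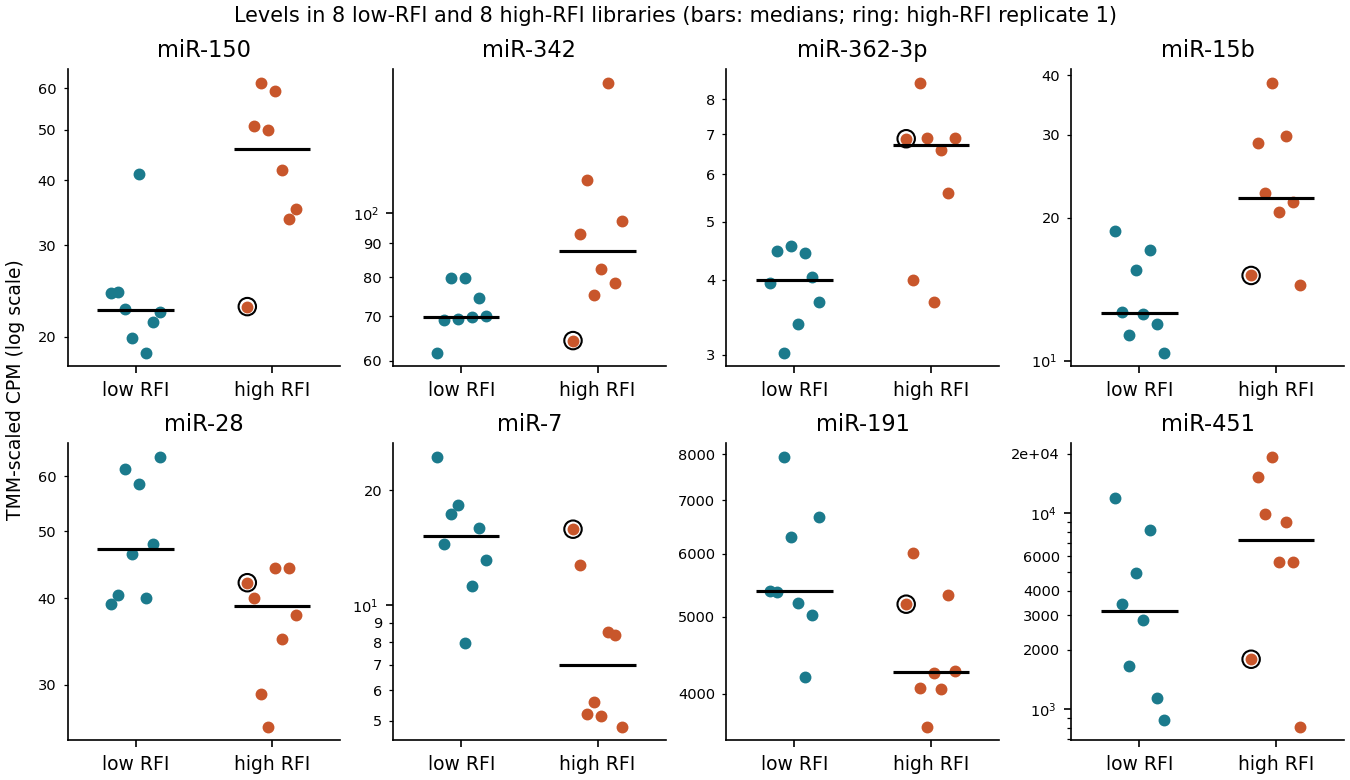
Each point is 1 library, with TMM-scaled CPM on a log axis, for 8 miRNAs in 8 low-RFI and 8 high-RFI libraries; bars are medians and the ring marks high-RFI replicate 1, whose steer also gave a grass library. For miR-150 the ranges 18.6 to 41.2 and 22.9 to 61.5 CPM meet only through a single library of each class, while miR-451 spreads widely in both.

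The miR-17-92 cluster and its paralogs, whose products promote cell-cycle entry and survival, lay below zero throughout. Of 14 listed names 12 were tested, and all 12 stood below zero with differences from -0.76 to -0.21 and a median of -0.53, against -0.05 for all 318. At an unadjusted p under 0.05 there were 3 lower and 0 higher. Over all 318 miRNAs, 176 lay below zero, and 23 (7.23%) were lower and 11 (3.46%) higher at that p. In the list 0 passed the adjusted test. The members share primary transcripts and related sequences, so they are not separate observations of the classes. All 12 stayed below zero whichever single library was left out, with medians from -0.68 to -0.36. The number at an unadjusted p under 0.05 ranged from 1 to 6: it was 1 without high-RFI replicate 2 or 4 or low-RFI replicate 5 or 8, and 6 without replicate 1 of either class. Relative to zero, 11 of 12 were below under upper-quartile scaling (median -0.30).

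The 3 members with an unadjusted p under 0.05 were miR-17-3p, miR-17-5p and miR-106b. miR-17-5p, the main product of its hairpin, ran from 23.5 to 42.7 CPM in low RFI (median 26.5) and from 25.2 to 67.0 CPM in high RFI (median 39.1). Except for low-RFI replicate 1, every low-RFI library lay below the high-RFI median. The difference was -0.51 ± 0.23 (adjusted p = 0.406). miR-106b, hosted with miR-93 and miR-25 in a paralogous cluster, had medians of 21.4 CPM in low RFI and 33.7 in high RFI (-0.61 ± 0.29, adjusted p = 0.429), with 4 high-RFI libraries above every low-RFI library. miR-17-3p, the other arm of the miR-17 hairpin, had medians of 2.00 and 2.62 CPM (-0.70 ± 0.28, adjusted p = 0.387).

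Among the remaining members, miR-20a lay below the high-RFI median in 8 of 8 low-RFI libraries, at 21.0 to 32.1 CPM (median 29.9) against 24.4 to 55.9 (median 34.8), with a difference of -0.35 ± 0.18. The most abundant members were miR-92a (-0.21 ± 0.18, medians 566 and 626 CPM), miR-25 (-0.36 ± 0.28, 416 and 540 CPM) and miR-19b (-0.47 ± 0.49, 265 and 337 CPM). miR-93 stood at -0.51 ± 0.29, miR-19a at -0.76 ± 0.53 and miR-18a at -0.54 ± 0.49. Single libraries carried much of several of these values. Without high-RFI replicate 2, miR-18a was at -0.15, miR-25 at -0.18, miR-92a at -0.10 and miR-93 at -0.34, and without high-RFI replicate 3, miR-19a was at -0.48 and miR-19b at -0.21. The scarce miR-363 (-0.72 ± 0.37) and miR-106a (-0.57 ± 0.35) averaged under 1 CPM. When tested names were grouped by their neighbours in RefSeq (ARS-UCD2.0, gaps of at most 10 kb), 312 of 318 matched and 20 groups held 3 or more tested members. The lowest medians belonged to the 3 genomic copies of this family (-0.52, -0.51 and -0.51): the group of miR-106b, and the 2 groups that hold miR-92a and miR-19b, names that belong to both.

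miR-15b, encoded in the gene SMC4 beside a copy of miR-16 and an inhibitor of cyclins, had the sixth smallest p. It ran from 10.4 to 18.8 CPM in low RFI (median 12.6) and from 14.5 to 38.6 CPM in high RFI (median 22.1). All 8 low-RFI libraries lay below the high-RFI median and 6 high-RFI libraries above every low-RFI one. The difference was -0.80 ± 0.29 (adjusted p = 0.387), or 1.74-fold higher in high RFI. Of the 6 miR-15 and miR-16 family members 5 lay below zero (176 of 318 over all miRNAs), with a median of -0.17 (0.05 with upper-quartile scaling). In the family, miR-15b alone had an unadjusted p under 0.05. The others lay between -0.27 (miR-16b, ± 0.23) and 0.06 (miR-16a, ± 0.15).

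Both miR-15b and miR-106b followed the erythrocyte miRNA miR-451 from library to library within each class. For miR-15b Pearson's r was 0.96 in low RFI and 0.93 in high RFI (exact permutation p = 0.000149 and 0.000794, adjusted 0.00119 and 0.00212), with Spearman's rho of 0.98 and 0.90 (p = 0.000397 and 0.00456). For miR-106b r was 0.87 and 0.95 (exact permutation p = 0.0067 and 0.000446, adjusted 0.0134 and 0.00179), with rho of 0.86 and 0.98 (p = 0.0107 and 0.000397). Without the 2 libraries farthest from the median miR-451, r stayed between 0.85 and 0.91 in these 4 relations. With miR-451 as a covariate, miR-15b was at -0.47, miR-106b at -0.31 and miR-93 at -0.16, the median of the 12 miR-17-92 members was -0.27 and 11 of them lay below zero. Of the 318 miRNAs, only miR-15b, miR-106b, miR-150 and miR-342 were related to miR-451 in this way. How many others follow it as closely was not tested, so the relation cannot be called particular to miR-15b and miR-106b. miR-93 and miR-25 were also highest in low-RFI replicate 1 and high-RFI replicates 2 and 4, the libraries with the most miR-451. The part of red blood cells in these differences was not tested.

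Among the miRNAs that were higher in low RFI, miR-28 had the smallest p. It is encoded in the gene LPP and is known for restraining proliferation in B cells. It ran from 39.2 to 64.1 CPM in low RFI (median 47.1) and from 26.1 to 44.3 CPM in high RFI (median 38.9). All 8 low-RFI libraries lay above the high-RFI median and 4 high-RFI libraries below every low-RFI one. The difference was 0.41 ± 0.13 (95% interval 0.15 to 0.68, adjusted p = 0.228), or 1.33-fold. The other names of its list, miR-708 and both arms of the miR-151 hairpin, stood at 0.15 ± 0.10 (miR-151-3p), 0.22 ± 0.18 (miR-151-5p) and -0.50 ± 0.36 (miR-708). The median of the 4 was 0.19 (-0.12 with total counts). The value of miR-708 rested on the 41.2 CPM of high-RFI replicate 6 and was 0.05 without it.

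miR-7, an inhibitor of growth factor and insulin-pathway signalling best known from neurons and pancreatic islets, showed the larger fold. It ran from 7.96 to 24.5 CPM in low RFI (median 15.2) and from 4.82 to 15.8 CPM in high RFI (median 6.98). The overlap came mainly from low-RFI replicate 5, at 7.96 CPM, and high-RFI replicates 1 and 2, at 15.8 and 12.7 CPM. The difference was 0.90 ± 0.30 (adjusted p = 0.248), or 1.86-fold, with 8 of 8 low-RFI libraries above the high-RFI median. RefSeq lists 2 loci under this name, of which HNRNPK holds at least 1, and the deposited name does not separate them. The neuronal list gives little to set beside it, since only miR-9-5p and miR-129-3p of its 7 names were tested (median difference 0.69, or 0.18 without low-RFI replicate 7, 0 at an unadjusted p under 0.05), summing to between 1.26 and 6.92 CPM in low RFI and between 1.47 and 3.29 in high RFI.

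miR-191 was the most abundant of the 20 miRNAs with the smallest p, ranking 15 of all by level. It ran from 4202 to 7946 CPM in low RFI (median 5376) and from 3635 to 6007 CPM in high RFI (median 4262). In 7 of 8 low-RFI libraries it lay above the high-RFI median, and 3 high-RFI libraries lay below every low-RFI one. The difference was 0.33 ± 0.14 (adjusted p = 0.401). miR-95 had medians of 20.2 CPM in low and 12.5 CPM in high RFI (0.67 ± 0.25, adjusted p = 0.387), with 6 of 8 low-RFI libraries above the high-RFI median. miR-340, in RNF130, was above that median in 8 of 8 (4.46 and 3.17 CPM, 0.46 ± 0.20), and miR-6522 in 5 of 8 (3.15 and 2.53 CPM, 0.71 ± 0.30).

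A pair of differences at an unadjusted p under 0.05 came from a single library. miR-34c, induced by the tumour suppressor p53, stood at 20.6 CPM in low-RFI replicate 2 and between 0.504 and 4.10 CPM in the other 15 libraries. Its difference of 1.08 ± 0.48 became -0.60 without that library. miR-141, of the epithelial miR-200 family, was at 13.8 CPM in the same library and at 3.99 CPM or less in all others, and its difference of 0.94 ± 0.45 became 0.01. It was the sole tested name of the 6 in the epithelial list. The others summed to few counts over the 16 libraries, from 4 for miR-429 to 57 for miR-205.

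The second smallest p belonged to miR-362-3p, a scarce product of a cluster of related miRNAs in the gene CLCN5. It ran from 3.02 to 4.55 CPM in low RFI (median 4.0) and from 3.67 to 8.52 CPM in high RFI (median 6.72). In high RFI, 6 libraries lay above every low-RFI library and the remaining ones at or below 4.0 CPM. The difference was -0.63 ± 0.18 (adjusted p = 0.0943), or 1.54-fold higher in high RFI. The other arm of the same hairpin, miR-362-5p, was at 0.08 ± 0.15, with medians of 30.4 CPM in low RFI and 28.3 in high RFI. Of the 8 tested miRNAs of the cluster 5 lay below zero (176 of 318 over all miRNAs), with a median of -0.02 (0.21 with upper-quartile scaling). In the cluster, miR-362-3p alone had an unadjusted p under 0.05. The others lay between -0.23 (miR-188, ± 0.21) and 0.26 (miR-502b, ± 0.23), with miR-532 at -0.14 ± 0.11 and miR-502a at 0.18 ± 0.27.

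The remaining miRNAs among the 20 smallest p-values were lower in low RFI and, except for miR-190a, below 10 CPM on average. miR-190a, in the gene TLN2, ran from 6.68 to 11.5 CPM in low RFI (median 9.33) and from 10.1 to 41.1 CPM in high RFI (median 10.5). Its difference of -0.80 ± 0.30 (adjusted p = 0.387) drew on high-RFI replicates 8 and 2, at 41.1 and 27.5 CPM, and was -0.46 without replicate 8. The medians of the classes differed far less than the means. The other differences were -0.70 ± 0.28 for miR-27a-5p, -0.54 ± 0.23 for miR-369-3p, -0.51 ± 0.20 for miR-149-5p, -0.51 ± 0.20 for miR-345-5p, -0.47 ± 0.20 for miR-326, -0.44 ± 0.18 for miR-505 and -0.40 ± 0.16 for miR-328. All 8 low-RFI libraries lay below the high-RFI median for miR-27a-5p, miR-149-5p, miR-345-5p, miR-505 and miR-328.

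The muscle-enriched miRNAs, which regulate myoblast differentiation and fibre type, overlapped between the classes throughout. Of the 8 tested, 6 lay below zero (176 of 318 over all miRNAs), with a median of -0.22, and 0 had an unadjusted p under 0.05. Their summed level ran from 158347 to 217012 CPM in low RFI and from 110068 to 242712 in high RFI. miR-133b came closest, at 5165 to 9966 CPM in low RFI (median 6912) and 5259 to 14602 in high RFI (median 8474), with a difference of -0.45 ± 0.24 (adjusted p = 0.471). miR-133a stood at -0.21 ± 0.21 and miR-1, transcribed with it and a driver of muscle differentiation, at -0.05 ± 0.18. miR-208b and miR-499, encoded in slow-type myosin genes, stood at -0.29 ± 0.21 and -0.23 ± 0.26. The value of miR-499 was -0.03 without high-RFI replicate 8, its highest library. miR-208b lay below the high-RFI median in 8 of 8 low-RFI libraries (medians 730 and 925 CPM). The cardiac miR-208a, under 1 CPM on average, was at -0.26 ± 0.64. miR-206, which marks immature and regenerating fibres, stood at 0.43 ± 0.31 (medians 22.9 and 13.9 CPM), and miR-486, enriched in striated muscle, at 0.29 ± 0.19. The median of this list was -0.057 without high-RFI replicate 1. Under upper-quartile scaling it was 0.02, and miR-1, miR-133a and miR-499 were above zero.

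The most abundant miRNA, miR-10b, encoded in the HOXD cluster, took 64.0% ± 10.2 of the counts in low RFI and 58.3% ± 6.39 in high RFI (SD, n = 8 each), from 45.8% to 74.5% and from 51.5% to 71.7%. The fitted difference was 0.55 ± 0.29 (adjusted p = 0.471). Its relative miR-10a, in the HOXB cluster, had medians of 20128 and 13452 CPM (0.66 ± 0.30, adjusted p = 0.406), with 6 of 8 low-RFI libraries above the high-RFI median. Among the other abundant miRNAs, miR-26a was at 0.27 ± 0.18 and miR-143, of smooth muscle, at 0.29 ± 0.22. miR-338, the remaining miRNA among the 5 largest positive differences at 10 CPM or more, was at 0.85 ± 0.51 (medians 22 and 9.06 CPM).

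Lists of other tissue components lay near the median of all miRNAs, on a side of zero that changed with the scaling (above it with upper-quartile scaling, at 0.20 for endothelium, 0.17 for smooth muscle and fibroblast, 0.15 for liver and 0.16 for lipid and energy metabolism). The endothelial list had a median of -0.03 (0 of 4 at an unadjusted p under 0.05), with miR-126-3p at -0.10 ± 0.15. The smooth muscle and fibroblast list had a median of -0.08 (0 of 7), and the liver list one of -0.07 (0 of 3), with miR-192 at 0.21 ± 0.11 and above the high-RFI median in 8 of 8 low-RFI libraries. Of the 16 miRNAs of lipid and energy metabolism, 10 lay below zero (176 of 318 over all miRNAs), with a median of -0.07. The only member with an unadjusted p under 0.05 was miR-107, a regulator of insulin sensitivity (-0.56 ± 0.27). Its close relative miR-103 was at -0.53 ± 0.27. Over all settings run, miR-107 ranged from -0.85 to -0.26 and miR-103 from -0.83 to -0.23. Both were highest in low-RFI replicate 1 and high-RFI replicates 2 and 4, the libraries with the most miR-451 of their classes. The part of blood cells in these 2 differences was not tested. The metabolic miR-378, produced from the gene for a mitochondrial co-activator, was at 0.06 ± 0.17 and miR-210, induced by low oxygen, at 0.16 ± 0.20.

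The let-7 family, which restrains growth and insulin signalling, lay close to zero in all 9 members, from -0.16 to 0.05 with a median of 0.01 (-0.35 with total counts). The imprinted DLK1-DIO3 cluster had 25 of 53 listed names tested, with 15 below zero (176 of 318 over all miRNAs) and a median of -0.07 (0.16 with upper-quartile scaling). In it 2 of 25 were lower at an unadjusted p under 0.05 (23 of 318 over all miRNAs, 7.23%), miR-369-3p and miR-376e (-0.59 ± 0.29). miR-376e was scarce, at 0 to 1.80 CPM in low RFI and 0.735 to 2.52 in high RFI. Leaving out single libraries took the median of the cluster from -0.16 to 0.047 and the count of lower members from 0 to 4. Without high-RFI replicate 6 these were 0.047 and 0. All 5 tested names of the cluster of miR-424, miR-450 and miR-542 lay below zero (176 of 318 over all miRNAs). Their median was -0.33, with 0 at an unadjusted p under 0.05 and miR-424-5p at -0.33 ± 0.21. Without high-RFI replicate 8, 3 of 5 lay below zero with a median of -0.22. Under upper-quartile scaling 3 of 5 did, with a median of -0.09. Of the 41 tested members of the ruminant family of miR-2284 and miR-2285, 15 lay below zero (176 of 318 over all miRNAs). Their median was 0.06 (-0.28 with total counts), and 0 had an unadjusted p under 0.05. The miR-30, miR-29, miR-181 and miR-23, miR-27 and miR-24 lists had medians of 0.00088, -0.03, -0.08 and 0.01, which were -0.32 for the first and -0.32 for the last with total counts and 0.19 and 0.15 for the others with upper-quartile scaling. Each list's count at an unadjusted p under 0.05 in these was 1, 0, 0 and 1, all lower in low RFI.

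**Figure D3:**
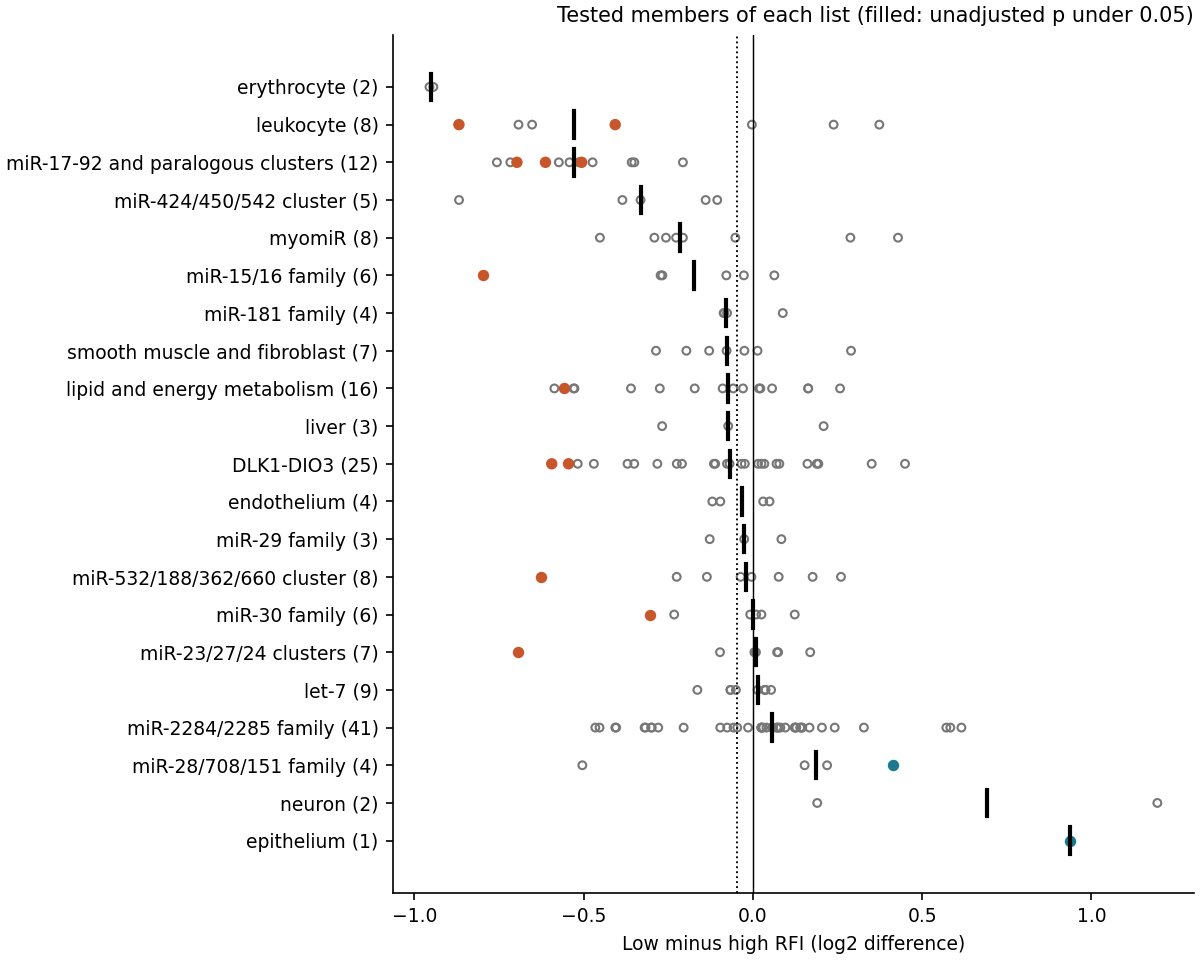
Each row is a list, with the number of tested members in brackets, and each point the log2 difference of a member, low minus high RFI; filled points have an unadjusted p under 0.05, thick bars are list medians and the dotted line is the median of all 318 miRNAs (-0.05). The erythrocyte, leukocyte and miR-17-92 lists have the lowest medians, at -0.95, -0.53 and -0.53, and the let-7 family the narrowest range among lists of 5 or more.

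The zero of the comparison depended on how libraries were scaled. The median of all miRNAs was -0.05 with TMM, -0.01 with DESeq2 size factors, -0.37 with total counts and 0.18 with upper-quartile scaling. At an unadjusted p under 0.05 the split was 23 lower and 11 higher with TMM, 20 and 16 with DESeq2 size factors, 66 and 0 with total counts, and 3 and 61 with upper-quartile scaling. The last setting called 5 miRNAs by edgeR, all higher in low RFI: miR-28 (0.65), miR-7 (1.15), miR-191 (0.56), miR-192 (0.44) and miR-151-3p (0.38). Each of these scalings applies a common factor to all miRNAs of a library, so subtracting the median of all miRNAs removes most of the shift. Level values relative to it are therefore no property of the named miRNAs. Over the 4 scalings miR-150 stood between -0.84 and -0.82 from that median, miR-342 between -0.43 and -0.36, miR-362-3p between -0.59 and -0.56, and miR-15b between -0.81 and -0.75. miR-28 stood between 0.45 and 0.47, miR-7 between 0.94 and 1.00 and miR-191 between 0.37 and 0.38.

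**Figure D4:**
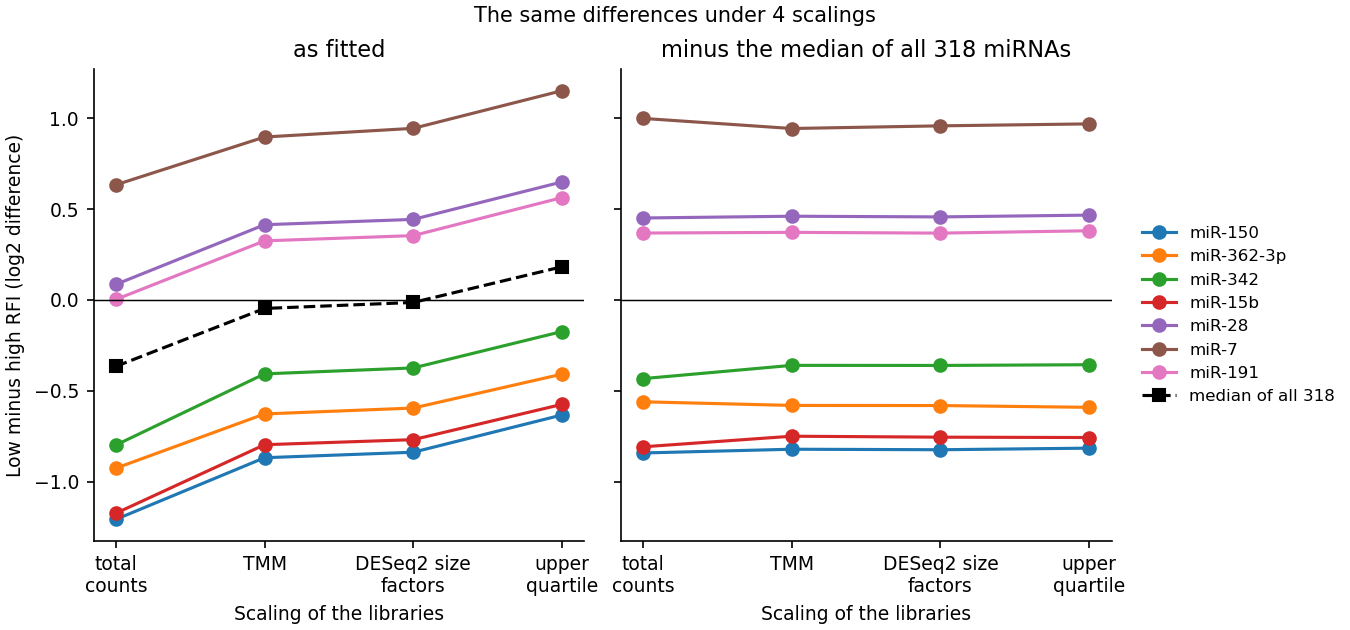
Log2 differences, low minus high RFI, of 7 miRNAs under 4 scalings of the libraries, as fitted (left, with the median of all 318 miRNAs as dashed squares) and after subtracting that median (right). The fitted values rise together from total counts to upper-quartile scaling as the median goes from -0.37 to 0.18, and the values relative to it stay nearly level. That follows largely from the common factor that each scaling applies to a library.

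The same RFI contrast was then set beside that of the other breed and the other diet. For miR-150 the difference of -0.87 in Holstein-Friesian steers on concentrate stood beside -0.08 in Holstein-Friesian steers on grass and 0.25 in Charolais steers on concentrate. The difference between the breeds on concentrate was -1.12 ± 0.33 (adjusted p = 0.172), and between the diets in Holstein-Friesian steers -0.79 ± 0.33 (adjusted p = 0.724). For miR-342 the values were -0.41, -0.01 and 0.21, with a breed difference of -0.62 ± 0.16 that had the smallest adjusted p of all (0.123). No miRNA passed either test of the difference: 0 of 318 (0%) between breeds, with 39 at an unadjusted p under 0.05, and 0 of 318 (0%) between diets, with 19 (11 without high-RFI replicate 6). DESeq2 and limma-voom also called 0 in both, with 30 and 35 at an unadjusted p under 0.05 between breeds and 16 and 19 between diets.

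The next smallest p-values for the breed difference belonged to miR-505 (-0.83 ± 0.26), miR-190a (-1.33 ± 0.42) and miR-15b (-1.26 ± 0.40), each with an adjusted p of 0.174. The smallest for the diet difference belonged to miR-27a-5p (-1.35 ± 0.39, adjusted p = 0.27), which stood at -0.70 on concentrate and 0.66 on grass. On concentrate miR-27a-5p was scarce, at 0.729 to 1.73 CPM in low RFI and 1.16 to 2.42 in high RFI. The other arm of its hairpin, miR-27a-3p, had an RFI difference of 0.07 there. Next for the diet difference was miR-362-3p (-0.70 ± 0.25, adjusted p = 0.724). For miR-28 the RFI difference of 0.41 stood beside 0.14 on grass and -0.05 in Charolais steers on concentrate, and for miR-7 the 0.90 stood beside -0.09 and -0.27. The median of the 12 miR-17-92 members was -0.53 here, -0.04 in Holstein-Friesian steers on grass, 0.34 in Charolais steers on concentrate and -0.05 in Charolais steers on grass. The erythrocyte pair had medians of -0.95, -0.46, 0.64 and -0.26 in the same order, and the leukocyte list -0.53, -0.05, 0.19 and -0.30. Across the diets the comparison is also one between an earlier and a later phase, and these cannot be told apart.

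**Figure D5:**
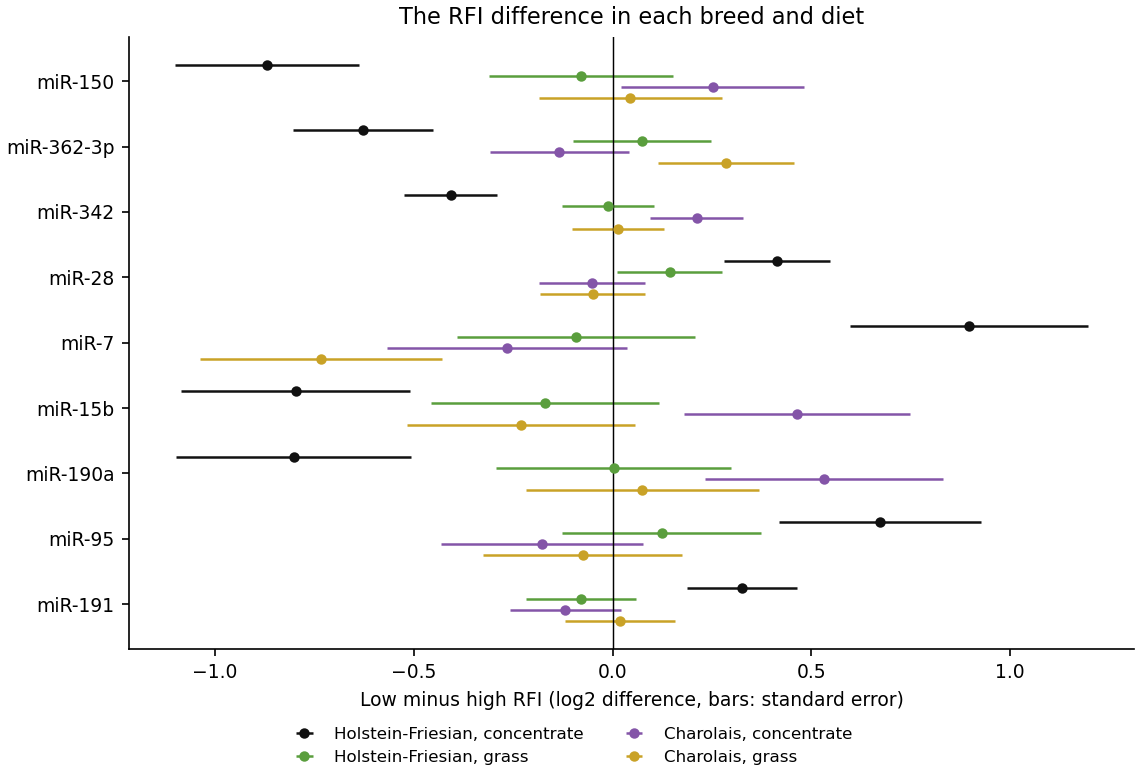
Log2 difference, low minus high RFI, with its standard error for 9 miRNAs, chosen by their p in this comparison, in each breed and diet (8 against 8 libraries in each). The black points of Holstein-Friesian steers on concentrate lie farthest from zero for each of the 9, which the choice by p in that group favours. For miR-150 the value is -0.87 against 0.25 in Charolais steers on concentrate, and no difference between breeds or diets passed the adjusted test.

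The libraries also differed in how widely they spread. Over all tested miRNAs the SD of log2 CPM was larger in high than in low RFI for 194 of 318 (61%), and for 116 of the 169 at 10 CPM or more (68.6%), where the median SD was 0.263 in low and 0.357 in high RFI. miRNAs of a library are not independent, so this is a description of 16 libraries and was not tested.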

How the data were processed

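The authors deposited estimated counts without normalization, in 1 table of 1030 miRNA names (prefix bta left out here) by 64 libraries, matched to samples through their descriptions. Libraries were made with an Illumina TruSeq kit from RNA isolated with a Qiagen RNeasy kit, per the labels' protocols. The submitters' processing notes name cutadapt 2.6, FastQC 0.11.8, edgeR 3.5, R 3.4 and ARS-UCD 1.2, without their roles. No source used here names the aligner or counter. Of the names, 61 held fractional values, which were rounded. For miR-19b and miR-181a the fractions differed between the phases, so reads may have been shared differently there. One name, miR-2285b, with 3 empty cells, was left out.

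All 64 libraries were fitted in edgeR 4.0.16 (R 4.3.3): TMM, filterByExpr over 8 groups, 8 group means, robust quasi-likelihood, 56 residual degrees of freedom, Benjamini-Hochberg adjustment over 318 miRNAs, called at 0.05. The filter removed 0.00592% of counts. Adjusted p-values come from it except where another tool is named. Correlations and SDs used log2 CPM with a prior count of 2. The script was tested on simulated counts. The closest pair of libraries differed beyond counting noise (chi-square of 112 per degree of freedom).

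Named were the 20 smallest p-values, the 10 most abundant, the 5 largest differences each way at 10 CPM or more, the members of 6 lists, the 3 most abundant of each of the other lists and the 5 smallest p-values of each difference test; miR-107, miR-103, miR-210 and miR-376e were named after their values were seen. Members and the 21 lists were chosen with earlier results of these data known. Alternatives were other scalings, filters, DESeq2 1.42.0, limma-voom (limma 3.58.1), only the groups compared, an animal effect, each library left out, and, chosen after seeing the data, miR-451 as a covariate and miR-10b left out.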

Additional observations from a re-analysis of the deposited data

Results flagged for a closer look

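Of 142 groups of 8 libraries checked for a value far from the others, 9 held one, where chance would give about 7.1 (about 1 in 20 groups). In low RFI, replicate 5 was far above its group for miR-150 at 41.2 CPM (group median 22.5), and replicate 2 for miR-34c at 20.6 CPM (1.23) and miR-141 at 13.8 CPM (1.93). Low-RFI replicate 1 was far above for miR-17-5p at 42.7 CPM (26.5) and miR-92a at 779 CPM (566), and replicate 4 was far below for miR-17-3p at 0.268 CPM (2.00). Low-RFI replicate 3 was far below for miR-376e at 0 CPM (1.09). In high RFI, replicate 8 was far above for miR-499 at 735 CPM (368) and replicate 5 far below for miR-155 at 6.43 CPM (16.4).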

How the results depend on the processing

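The count of 0 called miRNAs for low against high RFI held with DESeq2 size factors, total counts, no filter, a mean of at least 10 CPM, DESeq2, limma-voom, only the groups compared, an animal random effect, miR-451 as a covariate and miR-10b left out. It was 5 with upper-quartile scaling and 2 without the 5 concentrate libraries of steers sampled in both phases (miR-150 -1.04, miR-342 -0.52), of which high-RFI replicate 1 alone is in this comparison. Leaving out single libraries gave 0 to 2: 2 without high-RFI replicate 1, 1 without low-RFI replicate 5 and 0 in the other 14. For the breed difference the count was 31 with upper-quartile scaling, 1 without the repeated steers (miR-342 -0.72), 1 with the miR-451 covariate (miR-190a -1.62) and 0 to 1 without single libraries, the 1 being miR-342 without high-RFI replicate 1 (-0.68). For the diet difference it was 0 in every setting run.

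The values of 71 miRNAs given in the text were recomputed under these settings: 1906 kept direction and side of the threshold, 10 became called and 48 changed sign. With total counts miR-192 was at -0.064, miR-151-3p -0.17, miR-486 -0.029, miR-26a -0.033, miR-143 -0.069, miR-151-5p -0.078, miR-502b -0.13, miR-146a -0.055, miR-502a -0.13, miR-362-5p -0.31, miR-210 -0.16, miR-16a -0.28 and miR-378 -0.21. With upper-quartile scaling miR-532 was at 0.095, miR-92a 0.021, miR-188 0.00095, miR-133a 0.026, miR-499 0.014, miR-126-3p 0.14, miR-1 0.17 and miR-155 0.23. These shifts follow the median of all miRNAs. miR-155, near zero, was also at 0.034 with DESeq2 size factors, 0.034 in DESeq2, 0.014 in limma-voom, 0.033 with only the groups compared, 0.068 with the animal effect and 0.056 with the miR-451 covariate, under which miR-144 was at 0.033, miR-18a at 0.12 and miR-378 at -0.077. Without the repeated steers miR-16a was at -0.054. Leaving out single libraries moved miR-155 from -0.12 to 0.065, miR-34c from -0.60 to 1.37, miR-708 from -0.63 to 0.046, miR-1 from -0.14 to 0.018, miR-210 from -0.027 to 0.25, miR-16a from -0.028 to 0.15 and miR-378 from -0.013 to 0.12. Of the 21 list medians 16 changed sign in at least 1 setting, 10 of them with upper-quartile scaling, 5 with total counts and 8 when a single library was left out. The leukocyte, miR-17-92, miR-424, neuron and epithelium medians kept their sign in every setting run. The epithelium list held 1 tested name, at 0.0092 without low-RFI replicate 2, and the neuron list 2 scarce ones. The erythrocyte median changed sign only with miR-451 as a covariate, where miR-144 was the only member left (0.033).

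No paired analysis was possible because the 16 libraries came from different steers and the replicate numbers follow accession order and only name samples. Depth limits the scarce miRNAs: miR-34c had a median of 12 counts and a lowest count of 2.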
